A study of Macaca mulatta and Mus musculus with 5 samples.

Results

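ARPP21, AKAP12, CECR2, APOD and IGFBP7 are 5 genes that led the expression profile of RAG1 or DNTT cells in macaque meninges, and they were followed here in both species of the study, with the mouse genes taken by the same symbols (Arpp21, Akap12, Cecr2, Apod and Igfbp7). They are 5 of 14949 genes listed over the macaque tables and 5 of 31017 in the mouse table, and all 5 were listed in every library. Their selection was based on UMI levels in macaque meningeal RAG1 and DNTT cells: they were chosen by being high there, so those levels are given as a description, with no test. The measures that the choice did not use are their levels in mouse, and their difference between meninges and spleen in B cells that carry neither RAG1 nor DNTT.

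The data were single-cell 3'-end RNA profiles from sorted cells of the meninges (the membranes around the brain) of mouse and macaque, and of macaque spleen. The mouse library came from male C57BL/6 mice of 2, 21 and 48 days, pooled after hashtag-antibody labelling, and the sort is given as CD45–CD11b– with 30000 cells loaded. The count table carries no hashtag rows, so the ages cannot be told apart, and a single mouse library has no replicate. The macaque cells came from female Chinese rhesus macaques of 4 to 8 years, sorted as CD45–CD11b–CD3–, with 8000 cells loaded per channel and 2 channels each from meninges and spleen. The labels name no genetic change or treatment in any group, and do not say whether the channels of a tissue hold different animals, so p-values below measure only the spread between channels, which may be technical.

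B cells arise through stages that join gene segments into an antigen receptor. RAG1 is part of the recombinase that cuts the segments, DNTT (terminal transferase) adds untemplated bases at heavy chain joints and is known for the earlier, pro-B stage, and VPREB1 and VPREB3 belong to or are related to the surrogate light chain of pre-B cells, whereas MS4A1 (CD20) marks later B cells. ARPP21 is a cAMP-regulated phosphoprotein with RNA-binding domains, best known from neurons and immature thymocytes. AKAP12 (gravin) is a scaffold that holds protein kinases A and C, and CECR2 is a bromodomain protein of chromatin-remodelling complexes. APOD is apolipoprotein D, a secreted lipid carrier of the lipocalin family, and IGFBP7 is a secreted insulin-like growth factor-binding protein known from vessels and stroma. In the mouse annotation (GENCODE M21, GRCm38/mm10) the 5 genes are protein-coding and lie on different chromosomes: Arpp21 at 9:112065091-112235938 on the minus strand, Akap12 at 10:4266380-4359470 on the plus strand, Cecr2 at 6:120666369-120771190 on the plus strand, Apod at 16:31296192-31314808 on the minus strand and Igfbp7 at 5:77349240-77408041 on the minus strand.

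Cells were put in classes by their UMIs (unique molecular identifiers, each 1 counted RNA molecule). DNTT cells had a DNTT UMI, RAG1 cells a RAG1 UMI and no DNTT UMI, and MS4A1-positive B cells an MS4A1 UMI together with a UMI of a further B-cell marker and neither RAG1 nor DNTT; in each of them UMIs of a 7-gene B list had to outnumber those of every other cell type list. Non-B cells had no B-list, RAG1 or DNTT UMI and were named by a T and NK, myeloid, plasmacytoid, stromal or endothelial list. The mouse library held 1164 DNTT, 4023 RAG1 and 3240 MS4A1-positive B cells and 509 T and NK cells. Meningeal channels 1 and 2 held 19 and 31 DNTT cells, 165 and 146 RAG1 cells, 1441 and 1574 MS4A1-positive B cells and 1382 and 1411 T and NK cells. A further 1933 mouse cells and 184 and 227 macaque meningeal cells were led by the T and NK list but met no class rule. They are not in the T and NK class. The spleen channels held 4499 and 5374 MS4A1-positive B cells, and neither RAG1 nor DNTT was listed in their tables. Of 1549 mouse cells with a Dntt UMI, 385 were left out because another list led, of which 219 were led by the plasmacytoid list; in macaque meninges 5 of 24 and 9 of 40 were left out. A further class, cells in which the B list led but which met none of the definitions (1635 in mouse, 417 and 384 in macaque meninges), was set after seeing the data and is called the other B-list class.

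Libraries held 4073 to 13947 barcodes with a median of 2397 to 6309 UMIs per cell, and any pair of libraries shared 4 to 28 barcodes. The class labels were checked on RAG2, the partner of RAG1 in the recombinase, which no definition used. It was found in 31.6 and 22.6% of macaque DNTT, 30.3 and 30.1% of RAG1 and 0.625 and 0.318% of meningeal MS4A1-positive B cells, and in 39.3, 24.7 and 2.50% of the same mouse classes. VPREB1, which is on the B list, was found in 94.7 and 96.8% of macaque DNTT cells against 70.5% in mouse. CD3E was found in 61.1 and 62.0% of macaque meningeal T and NK cells, although the gate is printed as CD45–CD11b–CD3–; the dashes may mean negative or may only separate the markers, which the labels do not settle. Levels are UMIs of a gene per 1 M UMIs of all genes in the class (CPM), with exact 95% Poisson intervals, and shares of cells have exact 95% Clopper-Pearson intervals; both cover counting error only. Mouse and macaque levels come from separately made tables with different gene models, so they are set side by side and not tested against each other, and levels are not compared between genes.

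ARPP21 had opposite orders in the 2 species. In macaque meninges it stood at 911 and 795 CPM in DNTT cells of the 2 channels (853 ± 81.6, SD, n = 2), 2335 and 2297 CPM in RAG1 cells (2316 ± 27.4), 58.5 and 53.9 CPM in MS4A1-positive B cells and 0.392 and 0.579 CPM in T and NK cells. RAG1 cells were above DNTT cells in both channels, and each of these B classes was above T and NK cells, which carry no B-list UMI by definition. Cells led by a non-B list but outside the non-B class held 56 and 60 ARPP21 UMIs, against 3 and 4 in the non-B class. MS4A1 was found in 56.2 and 49.3% of these left-out cells, so the contrast is stated for the strict class only. In the mouse library Arpp21 stood at 160 CPM in Dntt cells (95% interval 153 to 167), 7.62 CPM in Rag1 cells (6.65 to 8.71), 1.97 CPM in Ms4a1-positive B cells and 0.957 CPM in T and NK cells.

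The log2 ratio of ARPP21 in DNTT over RAG1 cells was therefore -1.36 (counting interval -1.62 to -1.10) and -1.53 (-1.74 to -1.32) in the macaque channels and 4.39 (4.19 to 4.60) in mouse, a 20.9-fold higher level in mouse Dntt cells. With 1 mouse library the difference between species has no replicate check and was not tested. The order was the same at equal depth: with each cell thinned to 1000 UMIs, ARPP21 was found in 42.1 and 54.8% of macaque DNTT cells and 81.8 and 84.6% of RAG1 cells, whereas Arpp21 was found in 15.9% of mouse Dntt and 0.423% of Rag1 cells. Unthinned, the shares were 94.7 and 87.1% of macaque DNTT cells and 97.0 and 97.9% of RAG1 cells, and 49.7% and 2.16% in mouse, against 0.145 and 0.142% of macaque and 0.786% of mouse T and NK cells. Mouse Dntt cells, 1164 of 13267 cells after filtering, held 82.1% of all Arpp21 UMIs of the library. In macaque meninges RAG1 cells held 33.1 and 30.6% of ARPP21 UMIs and the other B-list class 50.6 and 47.1%, at 969 and 917 CPM, which lies below the RAG1 cells of both channels. The macaque ratio is sensitive to which DNTT cells are used: with only cells that had no stromal or endothelial UMI, which left 2 and 4 DNTT cells, the log2 ratio of the channel means went from -1.44 to -0.04. Allowing PDGFRA and EGFL7 of those lists, chosen after seeing the data, left 16 and 27 DNTT cells. The ratio then stayed clearly negative, as given in the last section.

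AKAP12 was high in both early classes of both species. In macaque meninges it stood at 2845 and 3046 CPM in DNTT cells (2945 ± 142, SD, n = 2), 3605 and 3338 CPM in RAG1 cells (3472 ± 189), 189 and 190 CPM in MS4A1-positive B cells and 3.52 and 2.32 CPM in T and NK cells. DNTT cells lay below RAG1 cells by 0.34 and 0.13 on the log2 scale, and in the 2 and 4 DNTT cells with no stromal or endothelial UMI the log2 ratio of the channel means turned from -0.24 to 0.45. RAG1 cells stood 19.1-fold and 17.6-fold above MS4A1-positive B cells. All non-B cells together held 92 and 16 AKAP12 UMIs, of which T and NK cells held 18 and 12. In channel 1 myeloid cells stood at 1.41 CPM, so most of the rest lay in the 11 stromal and 2 endothelial cells. In mouse Akap12 stood at 273 CPM in Dntt cells, 475 CPM in Rag1 cells, 149 CPM in Ms4a1-positive B cells and 11.7 CPM in T and NK cells. The order of the classes was the same as in macaque, with a narrower range: mouse Rag1 cells were 3.19-fold above Ms4a1-positive B cells (counting interval 3.07 to 3.31). The MS4A1-positive classes were not alike in the species. Vpreb3 stood at 1888 CPM in the mouse class and 3408 CPM in mouse Rag1 cells. VPREB3 stood at 132 and 129 CPM against 731 and 879 CPM in macaque. The part of this in the range was not tested. Per cell, the median was 21 and 25 AKAP12 UMIs in macaque DNTT cells and 9 and 8 in RAG1 cells, at median depths of 5488 and 7095 against 2760 and 2604.5 UMIs. Thinned to 1000 UMIs, AKAP12 was found in 84.2 and 87.1% of DNTT and 89.9 and 92.3% of RAG1 cells of macaque, and Akap12 in 27.3% of Dntt and 38.8% of Rag1 cells of mouse.

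CECR2 was highest in RAG1 cells of both species. In macaque it stood at 185 and 252 CPM in RAG1 cells (219 ± 47.7, SD, n = 2), 9.13 and 14.0 CPM in MS4A1-positive B cells, and no UMI in 1382 and 1411 T and NK cells, which allows at most 0.587 and 0.579 CPM. Macaque DNTT cells had 2 and 14 CECR2 UMIs, or 13.2 CPM (1.60 to 47.7) and 48.8 CPM (26.7 to 81.9), so that both intervals lie below the RAG1 values while the first overlaps the level of MS4A1-positive B cells. In mouse Cecr2 stood at 285 CPM in Dntt cells, 664 CPM in Rag1 cells, 159 CPM in Ms4a1-positive B cells and 5.02 CPM in T and NK cells. Mouse Rag1 cells were 4.18-fold above Ms4a1-positive B cells (4.03 to 4.33), and the log2 ratio of Dntt over Rag1 cells was -1.22. A Cecr2 UMI was found in 93.1% of mouse Rag1 cells but a CECR2 UMI in 43.0 and 48.6% of macaque RAG1 cells; thinned to 1000 UMIs these shares were 49.0% and 15.1 and 23.1%, the same order at equal depth.

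APOD was abundant in early macaque B-lineage cells and almost missing from the mouse ones. In macaque it stood at 1135 and 426 CPM in DNTT cells (780 ± 502, SD, n = 2), 1626 and 1808 CPM in RAG1 cells (1717 ± 129), 6.17 and 9.34 CPM in MS4A1-positive B cells and 6.26 and 4.05 CPM in T and NK cells. RAG1 cells were above the later B cells 263-fold and 194-fold, and the 2 channels disagreed on DNTT cells by more than their counting error. APOD was uneven among RAG1 cells, of which 52 of 165 and 50 of 146 had no APOD UMI while the highest cells held 43 and 24. In the other B-list class APOD stood at 271 and 316 CPM in meninges and at 33.1 and 54.9 CPM in spleen, the spleen UMIs being in 13 of 648 and 10 of 574 cells. The make-up of this class differed between tissues. A list of 7 plasma cell genes summed in it to 3936 and 4948 CPM in meninges, and to 11547 and 10759 CPM in spleen. In the mouse library Apod had 2 UMIs in Dntt cells (0.154 CPM, 0.0187 to 0.557), 2 in Rag1 cells (0.0699 CPM, 0.00847 to 0.253) and 6 in Ms4a1-positive B cells (0.257 CPM). Of 209 mouse Apod UMIs, 157 were in cells led by the plasmacytoid list but outside the strict non-B class, and a single cell held 86, so most of the little Apod there was lay outside the B-lineage classes.

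Among the B-lineage classes of macaque meninges, IGFBP7 was highest in DNTT cells. It stood at 383 and 405 CPM in DNTT cells (394 ± 15.5, SD, n = 2), 12.6 and 6.76 CPM in RAG1 cells, 1.21 and 0.505 CPM in MS4A1-positive B cells and 3.33 and 3.47 CPM in T and NK cells. DNTT cells were 30.4-fold and 59.8-fold above RAG1 cells (log2 ratios of 4.93, counting interval 3.79 to 6.30, and 5.90, 4.32 to 8.20), and 15 of 19 and 27 of 31 of them had an IGFBP7 UMI against 4 of 165 and 3 of 146 RAG1 cells. In the mouse library no Igfbp7 UMI was found in 1164 Dntt cells, which allows at most 0.231 CPM, and Rag1 and Ms4a1-positive B cells stood at 0.315 and 0.257 CPM. T and NK cells of mouse stood higher, at 5.74 CPM, so the mouse table did list the gene with UMIs in other cells. The mouse other B-list class stood at 5.05 CPM, with 95.1% of its 103 UMIs in 10 cells. The 20 plasmacytoid cells stood at 42.4 CPM.

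Because IGFBP7 is known from vessels and stroma, markers of those cells were counted beside it. Of the endothelial list, CDH5, CLDN5, VWF, KDR and EMCN had no UMI in the macaque DNTT cells of either channel, and EGFL7 was found in 11 of 19 and 18 of 31 of them, at 264 and 206 CPM, against no RAG1 cell. Egfl7 was likewise found in 42.8% of mouse Dntt cells and 2.04% of Rag1 cells, where Igfbp7 had no or few UMIs. Of the stromal list, COL1A1, COL1A2, COL3A1, DCN, LUM, MGP and RGS5 had no UMI in macaque DNTT cells. PDGFRB was found in 1 of 19 and 3 of 31 DNTT cells and no RAG1 cell, and FLT1 of the endothelial list in 2 and 1 DNTT cells and 1 and 0 RAG1 cells. PDGFRA was found in 68.4 and 64.5% of DNTT, 46.1 and 43.2% of RAG1 and 40.0% of MS4A1-positive B cells of both meningeal channels, as well as in 33.7 and 33.6% of spleen MS4A1-positive B cells. In meningeal channel 1 it was also found in 22.8% of T and NK and 31.4% of myeloid cells. The summed stromal and endothelial lists stood at 165 and 122 CPM and at 277 and 209 CPM in DNTT cells. In cells with no stromal or endothelial UMI, which left 2 and 4 DNTT cells, the log2 ratio of the channel means of IGFBP7 in DNTT over RAG1 cells went from 5.35 to 2.93. Allowing PDGFRA and EGFL7, a setting chosen after seeing the data, left 16 and 27 DNTT cells and gave 5.43. The few cells named by the stromal list, 11 and 8 per meningeal channel, held IGFBP7 at 594 and 215 CPM. That is above the DNTT cells in channel 1 (383 CPM) and below them in channel 2 (405 CPM). DNTT cells held 21.3 and 58.0% of all IGFBP7 UMIs of their channel, and non-B cells together held 49.6 and 21.5%. Myeloid cells stood at 22.5 and 7.40 CPM.

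**Figure D1:**
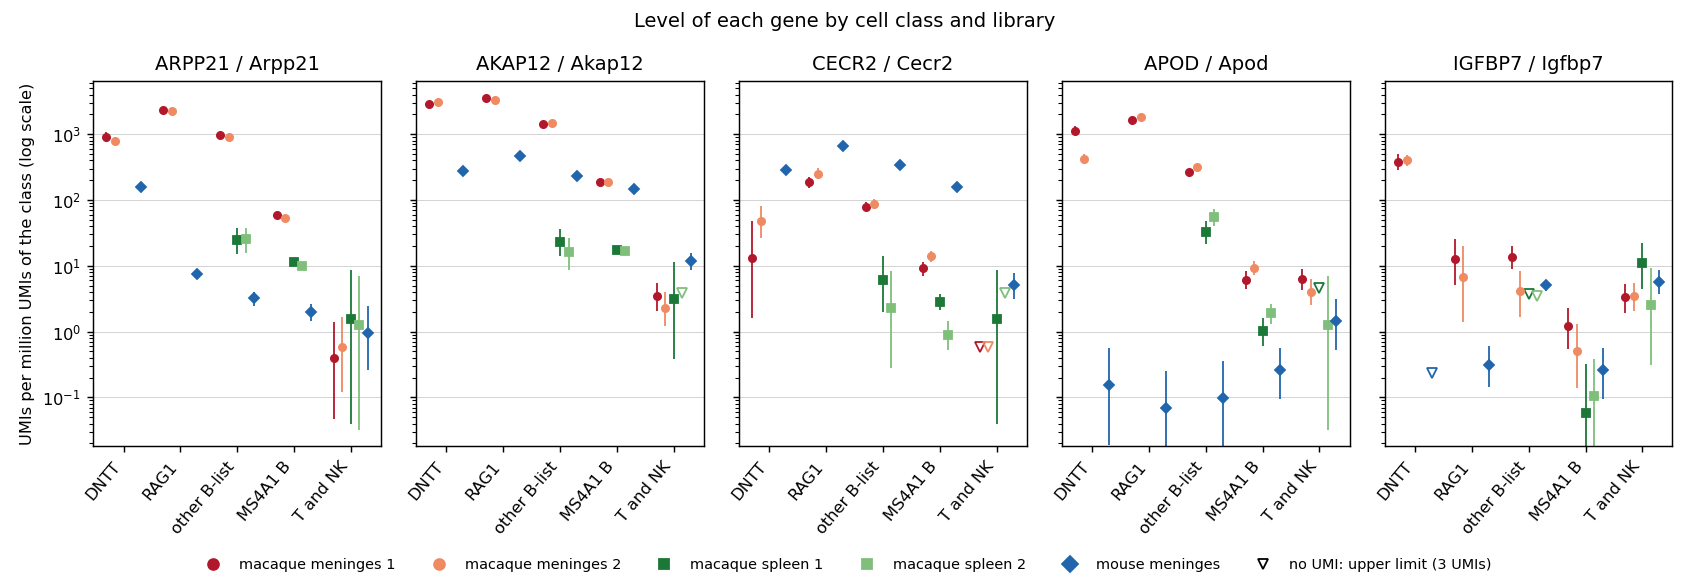
Level of each gene in CPM (log axis) in DNTT, RAG1, other B-list, MS4A1-positive B and T and NK cells, with 1 point per library and bars for the exact 95% Poisson interval; an open triangle is the limit that 0 UMIs allow. ARPP21 is highest in RAG1 cells in macaque and in Dntt cells in mouse, and APOD and IGFBP7 reach 1808 and 405 CPM in early macaque cells while the mouse points stay below 1 CPM in Dntt and Rag1 cells.

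**Figure D2:**
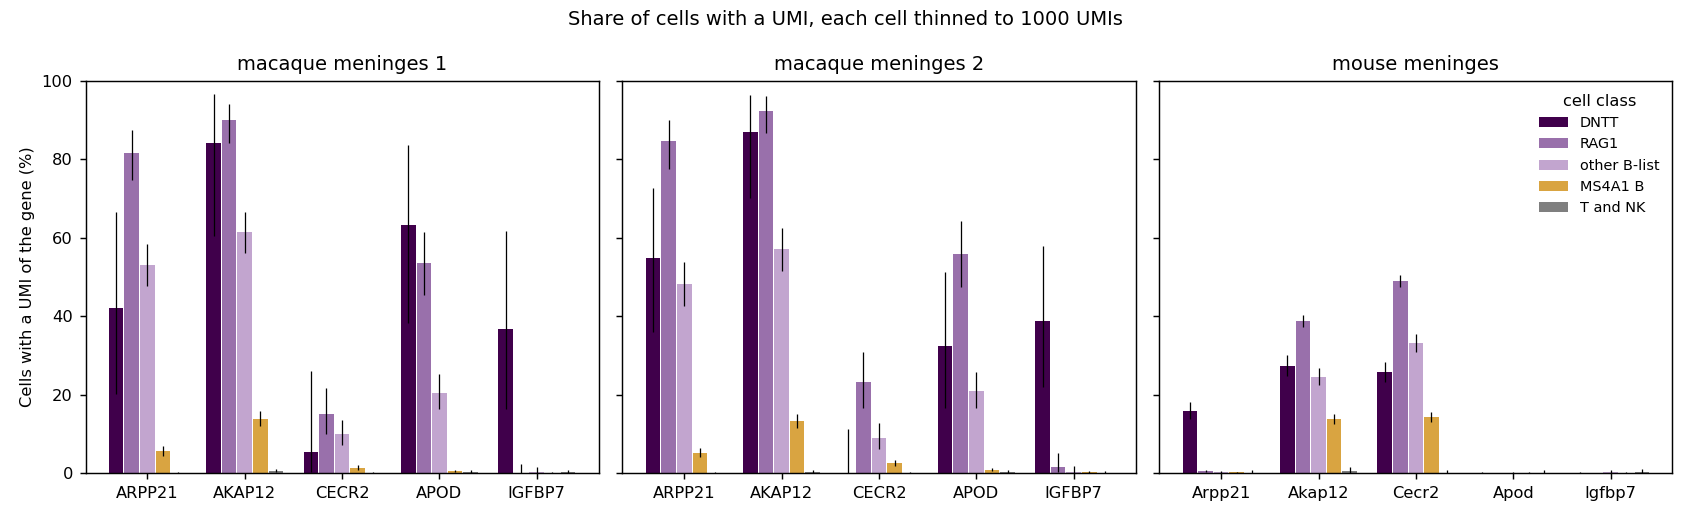
Percent of cells with a UMI of each gene after every cell was thinned to 1000 UMIs, by class and library, with exact 95% intervals. AKAP12 is found in 84.2 to 92.3% of macaque DNTT and RAG1 cells, and Cecr2 reaches 49.0% in mouse Rag1 cells.

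Counts of genes past a 2-fold ratio put these values beside the rest of the tables, using genes at 50 CPM or more in either class and no test. In mouse, Akap12 and Cecr2 reached that level in Rag1 or Ms4a1-positive B cells and both were more than 2-fold higher in Rag1 cells, as were 7.13% of 3353 genes. Between mouse Dntt and Rag1 cells, Arpp21 was among the 3.43% of 3440 genes more than 2-fold higher in Dntt cells, Cecr2 among the 3.69% more than 2-fold lower, and Akap12 within 2-fold. In macaque, where the choice of genes used these cells, all but IGFBP7 were at that level and more than 2-fold higher in RAG1 than in MS4A1-positive B cells in both channels, beside 18.5 and 20.2% of all genes, and nothing is read from that count.

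The number of the 5 genes found in a single cell is given as a description, since the genes were chosen for being high in these macaque cells, and no difference between species is read from it. At least 3 of the 5 genes had a UMI in 17 of 19 and 29 of 31 macaque DNTT cells. In RAG1 cells 46.7 and 47.3% had exactly 3 and 31.5% in both channels had 4, while 97.4 and 97.9% of T and NK cells had none. In mouse 80.8% of Rag1 cells had exactly 2, and 1.81% had 3. Mouse Dntt cells had exactly 2 in 47.7% and exactly 3 in 32.9% of cells. These shares are unthinned, and mouse cells were the deeper ones, with medians of 7551.5 and 5433 UMIs in Dntt and Rag1 cells.

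**Figure D3:**
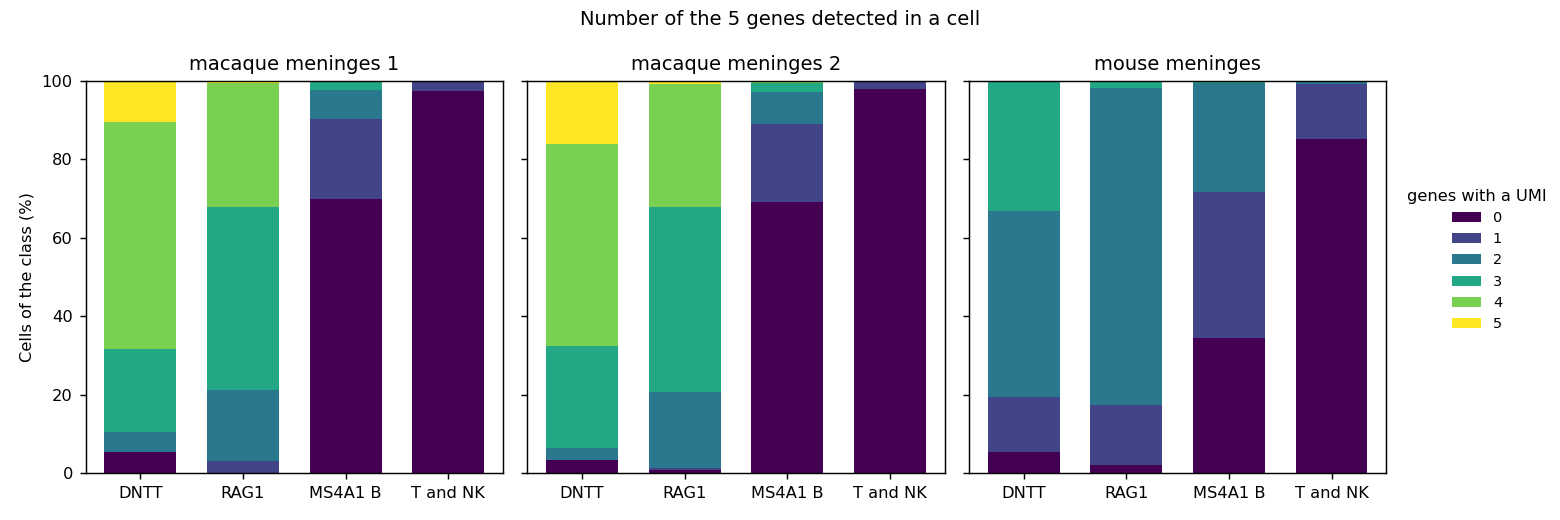
Percent of cells in each class with UMIs of 0 to 5 of the genes, for the 3 meningeal libraries. Macaque DNTT and RAG1 bars are made mostly of cells with 3 or 4 genes, mouse Rag1 cells mostly of cells with 2.

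The early classes were then divided by a UMI of VPREB1, which neither the choice of genes nor the DNTT and RAG1 definitions used directly, although it is 1 of the 7 B-list genes. In mouse, Arpp21 followed it closely. It stood at 198 CPM in the 821 Dntt cells with a Vpreb1 UMI and 6.21 CPM in the 343 without, and was found in 571 and 7 of these cells. Among mouse Rag1 cells it stood at 25.9 CPM in the 752 with a Vpreb1 UMI and 0.863 CPM in the 3271 without. The cells with a Vpreb1 UMI were deeper (medians of 8480 against 5935 UMIs in Dntt cells and 6459.5 against 5295 in Rag1 cells), and the part of depth in the result was not tested.

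ARPP21 showed no such split in macaque RAG1 cells. It stood at 2213 CPM with and 2503 CPM without a VPREB1 UMI in channel 1, and at 2341 and 2253 CPM in channel 2, so the channels differed in direction. Only 1 macaque DNTT cell per channel lacked a VPREB1 UMI, which leaves no comparison there. Akap12 and Cecr2 went the other way from Arpp21 in mouse: Akap12 stood at 256 CPM with and 341 CPM without a Vpreb1 UMI in Dntt cells and at 402 and 502 CPM in Rag1 cells, and Cecr2 at 237 and 480 CPM and at 533 and 713 CPM.

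**Figure D4:**
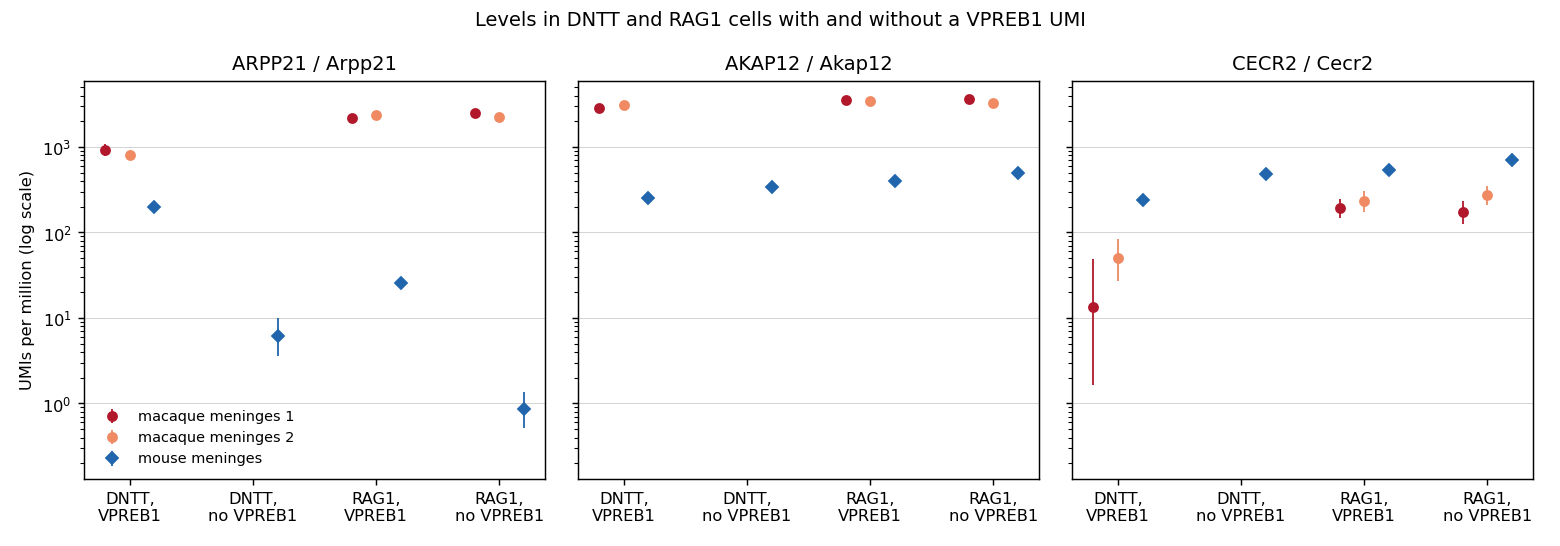
Levels in CPM (log axis) of ARPP21, AKAP12 and CECR2 in DNTT and RAG1 cells with and without a VPREB1 UMI, by meningeal library, with exact 95% Poisson intervals. Mouse Arpp21 stands at 198 and 6.21 CPM in Dntt cells with and without Vpreb1, while macaque ARPP21 in RAG1 cells stays between 2213 and 2503 CPM.

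Within DNTT cells a RAG1 UMI went with higher ARPP21 and AKAP12 in both species. ARPP21 stood at 1201 and 927 CPM in macaque DNTT cells with a RAG1 UMI against 734 and 499 CPM in those without, and mouse Arpp21 at 217 against 39.6 CPM. AKAP12 stood at 4367 and 3521 CPM against 1914 and 1975 CPM in macaque, and Akap12 at 325 against 164 CPM in mouse. IGFBP7 stood at 452 and 443 CPM with and 340 and 318 CPM without a RAG1 UMI in macaque, and these counting intervals overlap in both channels. The macaque subsets held 9 and 22 cells with a RAG1 UMI and 10 and 9 without, and they carry no test.

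A UMI of MKI67, a marker of dividing cells, went with low APOD. In macaque RAG1 cells APOD stood at 44.1 and 243 CPM with an MKI67 UMI (9 and 6 cells) and at 1934 and 2022 CPM without. In DNTT cells it stood at 368 and 85.8 CPM with and 2776 and 749 CPM without, so the order held in both classes and both channels. IGFBP7 in DNTT cells was alike in both subsets, at 397 and 393 CPM with and 352 and 416 CPM without an MKI67 UMI. AKAP12 in DNTT cells stood at 1521 and 2474 CPM with and 5676 and 3590 CPM without, while ARPP21 in RAG1 cells had no common order (1544 and 2596 against 2489 and 2256 CPM). In mouse, Arpp21 in Dntt cells stood at 93.9 CPM with and 240 CPM without an Mki67 UMI, and Cecr2 in Rag1 cells at 528 and 751 CPM. Cells with an MKI67 UMI were deeper in every class, for example 9108 and 9395 against 2687.5 and 2581 UMIs in macaque RAG1 cells, and the part of depth was not tested.

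The comparison of tissues asked whether these genes differ between meninges and spleen in macaque B cells with an MS4A1 UMI and no RAG1 or DNTT UMI. At this depth the lack of such a UMI does not show that a cell has left the early stage: RAG2 had 10 and 6 UMIs in the meningeal class and 0 in both spleen channels. A gene seen in fewer than 3 cells is left out of a macaque table and counted as 0. The spleen value may thus mean that RAG2 was not listed. ARPP21 stood at 58.5 and 53.9 CPM in meningeal and 11.5 and 9.94 CPM in spleen MS4A1-positive B cells, AKAP12 at 189 and 190 against 17.2 and 16.9 CPM, CECR2 at 9.13 and 14.0 against 2.86 and 0.894 CPM, and APOD at 6.17 and 9.34 against 1.03 and 1.89 CPM. Both meningeal channels were above both spleen channels for each gene. In edgeR's quasi-likelihood test on the 4 channel sums, ARPP21 was higher in meninges by a log2 fold change of 2.48 ± 0.10 (SE, Benjamini-Hochberg adjusted p = 1.33e-11) and AKAP12 by 3.57 ± 0.08 (adjusted p = 5.05e-15). CECR2 was higher by 2.74 ± 0.33 (adjusted p = 5.01e-06, edgeR) and APOD by 2.48 ± 0.30 (adjusted p = 6.55e-06, edgeR). IGFBP7 had 9, 4, 1 and 2 UMIs in the 4 channels and did not pass the filter on low counts. All 4 of the tested genes were thus called higher, where 22.4% of the 11235 genes tested were called higher, 19.9% lower and 42.3% in either direction, with a median log2 change of all genes of -0.003.

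Meningeal levels of ARPP21, AKAP12 and CECR2 were higher in B cells with a UMI of VPREB1 or VPREB3, and no test was made of this division. In meninges ARPP21 stood at 138 and 122 CPM in the 447 and 490 MS4A1-positive B cells with such a UMI and at 18.9 and 19.7 CPM in the 994 and 1084 without. AKAP12 stood at 383 and 346 against 92.9 and 112 CPM, and CECR2 at 21.8 and 28.8 against 2.81 and 6.62 CPM. The spleen had the opposite order for ARPP21 and AKAP12: ARPP21 stood at 4.17 and 7.77 CPM with and 15.8 and 11.0 CPM without, and AKAP12 at 7.88 and 10.2 against 22.6 and 20.1 CPM. Median depths in meninges were 4706 and 4709 UMIs with and 4827.5 and 4814 without, and in spleen 5838 and 4620 with and 2181.5 and 2633 without.

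With only the cells lacking VPREB1 and VPREB3, an alternative chosen after seeing the data, the log2 difference between tissues was smaller for each of the 4 genes. AKAP12 was still higher in meninges by 2.42 on the log2 scale (adjusted p = 1.47e-13, edgeR), CECR2 by 1.34 (adjusted p = 0.0211, edgeR) and ARPP21 by 0.69 (adjusted p = 0.00223, edgeR). The share of all genes called in this setting is not given here. With all MS4A1-positive B cells it was 42.3%, so a call alone says little. APOD was no longer called and turned to -0.30 (adjusted p = 0.663, edgeR). APOD in MS4A1-positive B cells rested on few cells in any case, with its 46 and 74 meningeal UMIs in 14 and 32 cells, of which the 10 highest held 91.3 and 66.2%, and its 18 and 36 spleen UMIs in 5 and 11 cells.

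**Figure D5:**
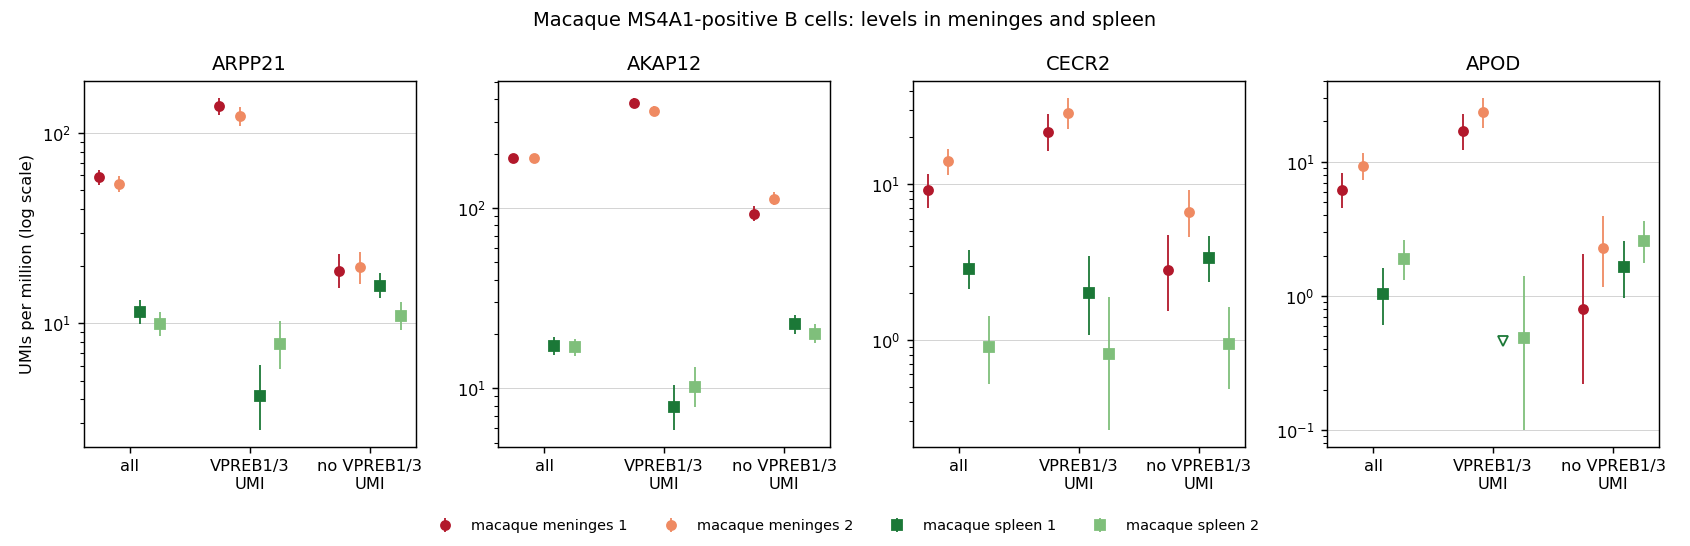
Levels in CPM (log axis) of ARPP21, AKAP12, CECR2 and APOD in macaque MS4A1-positive B cells of each meningeal and spleen channel, for all cells and for cells with and without a VPREB1 or VPREB3 UMI, with exact 95% Poisson intervals. AKAP12 without VPREB1 or VPREB3 still stands at 92.9 and 112 CPM in meninges against 22.6 and 20.1 CPM in spleen.

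Spleen B cells with 2 or more UMIs of a germinal centre list held little ARPP21 or AKAP12. ARPP21 stood at 1.71 and 1.62 CPM in these 603 and 688 cells, against 15.4 and 13.2 CPM in spleen B cells with no such UMI. AKAP12 had no UMI in the 603 cells of channel 1, which allows at most 0.643 CPM, and stood at 1.38 CPM in channel 2, against 23.8 and 23.6 CPM. In meninges the same division held 73 and 83 cells with 2 or more germinal centre UMIs, with ARPP21 at 83.3 and 35.8 CPM against 48.2 and 46.9 CPM, so the 2 channels differed in direction there.

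In mouse, where 2990 of 3240 Ms4a1-positive B cells had a Vpreb1 or Vpreb3 UMI, Akap12 stood at 159 CPM with and 23.6 CPM without it, and Cecr2 at 168 and 48.8 CPM. The direction was that of the macaque meninges. Arpp21 had 46 UMIs in the cells with and none in the 250 without, which allows at most 1.68 CPM against 2.13 CPM. The other B-list class of macaque meninges showed the same division, with ARPP21 at 1371 and 1291 CPM with and 175 and 216 CPM without a VPREB1 or VPREB3 UMI, and AKAP12 at 1979 and 2083 against 284 and 339 CPM. The plasma cell list stood at 3936 and 4948 CPM in this class, against 565 and 724 CPM in meningeal MS4A1-positive B cells. The part of plasma cells in the division was not tested.

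T and NK cells of meninges and spleen, which carry no B-list, RAG1 or DNTT UMI by definition, were compared with the same test. ARPP21, AKAP12 and CECR2 had 0 to 18 UMIs per channel there and did not pass the filter on low counts. APOD had 32 and 21 UMIs in meninges and 0 and 1 in spleen, and missed the threshold (adjusted p = 0.0541, edgeR). It passed the filter through its meningeal counts, and the fitted log2 fold change of 3.03 ± 1.01 rests on a single spleen UMI. IGFBP7 had 17 and 18 UMIs in meninges and 7 and 2 in spleen, with a log2 fold change of -0.66 ± 0.61 (adjusted p = 0.481, edgeR). Neither gene was called by edgeR, 1 of the 2 (APOD) had an unadjusted p under 0.05 (0.0131), and DESeq2 gave no adjusted p for either; in edgeR's test 23.6% of 9215 genes were called, 14.4% higher and 9.21% lower in meninges.

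Other genes of the pro-B and pre-B programme were read from a list of 21, of which 19 were listed in macaque and 14 passed the filter in MS4A1-positive B cells. There 8 were higher in meninges, 1 was lower and 5 did not pass the threshold in edgeR's test, with a median log2 change of 0.96 against -0.003 for all genes; over all genes tested 22.4% were called higher and 19.9% lower. The list was chosen with earlier results of these data known, so these counts are a description and no test of the list. The higher ones were CD9 (2.89), MYB (2.83), SOX4 (2.37), IL7R (1.88), SOCS2 (1.59), LEF1 (1.57), VPREB1 (1.45) and VPREB3 (0.48) on the log2 scale. MYB, SOX4 and LEF1 are transcription factors of immature lymphocytes, and IL7R is the interleukin-7 receptor chain on which early B cells of mouse depend. In T and NK cells 7 of the list passed the filter, and CD9 (0.84, adjusted p = 0.035, edgeR) and IL7R (0.37, adjusted p = 0.0264, edgeR) were higher in meninges there too. RAG1, DNTT and the B-list genes on this list could not pass there, because the class has none of their UMIs by definition. In MS4A1-positive B cells PAX5, the factor that keeps B-cell identity, was lower by a small amount (-0.22, adjusted p = 0.048, edgeR). AKAP12 (3.57) thus had a larger log2 change than any of these list genes, and ARPP21 (2.48) lay between SOX4 and MYB.

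The genes whose levels were most like each member were ranked by Pearson's correlation of log2(CPM + 1) over 13 class sums of the macaque channels, among 5152 genes. The sums share libraries and depth, and the values are a description with no p. They include RAG1 and DNTT sums of the kind by which these genes were chosen, so likeness among them is partly set by that choice. VPREB1, a B-list gene, has no UMI in the T and NK and myeloid sums by definition. ARPP21 was most like AKAP12 (r = 0.983), CECR2 (0.982), VPREB1 (0.980), DTNBP1 (0.980) and MAD1L1 (0.978). AKAP12 was most like ABCG1 (0.989), ARPP21, VPREB1 (0.977), LRRC26 (0.975) and BEX4 (0.973), and CECR2 like ARPP21, ADGRL2 (0.971), FOXO1 (0.969), DTNBP1 (0.969) and CAMK2B (0.965). APOD was most like RAG2 (0.980), DESI2 (0.978), HNRNPK (0.974), ADGRL2 (0.970) and H1FX (0.968). IGFBP7 stood apart: its leading genes were PRSS55 (0.963), TM7SF3 (0.944), SCCPDH (0.934), GSTM5 (0.931) and NRIP1 (0.917), and its r with the other 4 genes was 0.319 to 0.451. The DNTT cells of channel 1, being fewer than 20, did not enter. IGFBP7 stood at 405 CPM in the DNTT sum of channel 2 and at most at 22.5 CPM in any other sum. Its correlations thus rest largely on that 1 sum. In mouse only 6 class sums were available, over which Akap12 and Cecr2 had r = 0.969, Arpp21 and Akap12 0.756, and Arpp21 was most like Mmrn1 (0.995) and Gcc2 (0.993).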

How the data were processed

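Gene expression was measured as UMI counts for each cell barcode; the deposited tables hold these raw counts with no scaling. The submitters' processing notes name Cell Ranger and mm10; tool versions and the macaque reference are not given in the sources used here. A gene had to be seen in 3 or more cells to be in a macaque table. The 5 genes, the lists and the class rules were chosen with earlier results of these data known.

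Cells with at least 300 genes and at most 10% mitochondrial UMIs were used. Scrublet in scanpy 1.11.5 then removed 173 mouse cells and 39 per meningeal channel, leaving 13267, 4029 and 4269. In spleen it marked 0 cells, under the 0.5% that would show it to work, and all 5839 and 6783 cells entered. Libraries held 128.09 M UMIs in mouse, 19.02 and 19.76 M in meninges and 20.11 and 21.99 M in spleen. Python 3.11.15, numpy 2.4.6, scipy 1.17.1, pandas 2.3.3 and matplotlib 3.10.9 were used.

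UMIs were summed per channel and class. Tissues were compared on these sums by the quasi-likelihood test of edgeR 4.0.16 (R 4.3.3), with TMM factors, the filterByExpr filter, p-values adjusted by Benjamini-Hochberg over every gene tested and a threshold of 0.05; DESeq2 1.42.0 was an alternative. Thinning drew 1000 UMIs per cell without replacement (seed 0) and left out shallower cells: 6 and 3 RAG1 and 71 and 84 MS4A1-positive B cells in meninges. The like-genes named are the 5 with the highest correlation among genes at 50 CPM or more in a class sum of at least 20 cells. On simulated counts with 200 changed genes, the test recovered 86.8% of 2-fold and 98.2% of 4-fold changes among 11235 genes in MS4A1-positive B cells, with 13 unchanged genes called, and 68.5 and 87.6% among 9215 genes in T and NK cells, with 15. Values at 0 have an upper limit of 3 UMIs.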

Additional observations from a re-analysis of the deposited data

Results flagged for a closer look

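The ratio of ARPP21 between DNTT and RAG1 cells had opposite signs in the species. Its log2 value was 4.39 in the mouse library and -1.36 and -1.53 in the macaque meningeal channels. It is listed because every macaque channel lay on one side of 0 and the mouse library on the other. The difference was not tested, since there is 1 mouse library. Species goes with age (days against years), sex (male against female), reference and table, so these cannot be told apart.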

How the results depend on the processing

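In MS4A1-positive B cells the 4 genes tested were called higher in meninges under all alternatives run, except APOD without VPREB1 and VPREB3 cells (-0.30). The count of 4750 genes became 2783 with DESeq2 and 3065 with cells lacking stromal and endothelial UMIs, and 2174 in T and NK cells became 1034 with DESeq2 and 1142 without the filter on low counts. DESeq2 gave no adjusted p for APOD and IGFBP7 in T and NK cells. Leaving out channels gave 3779 to 4379 genes in MS4A1-positive B cells and 1186 to 2104 in T and NK cells, lowest without meningeal channel 2. In T and NK cells leaving out each channel moved IGFBP7 between -1.39 and 0.61 (without spleen channel 1), and it stood at 0.15 with cells that also carry B-list UMIs, where APOD turned to -0.11.

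The channel number as a replicate block gave 4617 and 1758 genes and changed no call of the 5 genes; same-numbered channels did not deviate together (correlation of -0.315 and -0.133), so the numbers do not pair the channels. Crossed numbers were tried because the correlations were negative, and gave 5180 and 2437 genes. With them APOD in T and NK cells passed (3.06, adjusted p = 0.016, edgeR). That pairing was picked from the same data, and APOD had 0 and 1 spleen UMIs there. Nothing is read from this pass.

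The log2 ratio of DNTT over RAG1 cells, taken on the channel means in macaque, moved as follows. Without stromal or endothelial UMIs, which left 2 and 4 macaque DNTT cells, ARPP21 went from -1.44 to -0.039, AKAP12 from -0.24 to 0.45 and IGFBP7 from 5.35 to 2.93; in mouse Arpp21 went from 4.39 to 4.80, Akap12 from -0.80 to -0.62 and Cecr2 from -1.22 to -0.75. Allowing PDGFRA and EGFL7 left 16 and 27 cells and gave -1.22 for ARPP21 and -0.022 for AKAP12. Requiring 2 UMIs of the defining gene gave 6.20 for IGFBP7, 4.66 for Arpp21, -0.91 for Akap12 and -1.62 for Cecr2, and turned the mouse Igfbp7 ratio of RAG1 over MS4A1-positive B cells to -1.56. At least 500 genes and at most 5% mitochondrial UMIs gave 4.01 for Arpp21 and -1.29 for Cecr2. Causes were not tested. Depth limits the macaque DNTT values of CECR2 (2 and 14 UMIs) and the RAG1 values of IGFBP7 (7 and 3 UMIs).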
